A study of Mus musculus with 60 samples.

Results

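The genes described here are 9 genes of the primitive endoderm and of FGF signalling, Gata4, Gata6, Sox7, Sox17, Pdgfra, Dab2, Fgf4, Fgfr1 and Fgfr2. They were found by matching the Ensembl identifiers of the expression table to these symbols, ENSMUSG00000021944 for Gata4, ENSMUSG00000005836 for Gata6, ENSMUSG00000063060 for Sox7, ENSMUSG00000025902 for Sox17, ENSMUSG00000029231 for Pdgfra, ENSMUSG00000022150 for Dab2, ENSMUSG00000050917 for Fgf4, ENSMUSG00000031565 for Fgfr1 and ENSMUSG00000030849 for Fgfr2. All 9 were in the table, among 27238 genes. Single mouse embryos of 6 stages, from the pronuclear stage (called 1-cell here) over the cleavage stages of 2, 4 and 8 cells to morula and blastula, were sequenced together with the cells that donated nuclei. The 60 libraries formed 20 groups of 3, and 54 of them were embryos.

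In vivo embryos came from C57BL/6 females mated with DBA2 males, and they developed in the mother until collection. NTC embryos were made by nuclear transfer of cumulus cell (CC) nuclei, and NTM embryos by nuclear transfer of mouse embryonic fibroblast (MEF) nuclei. Both NT types used enucleated oocytes of superovulated adult BDF1 females, BDF1 being the C57BL/6 by DBA2 cross, and were grown in culture. The methods describe superovulation for these females and not for the mothers of the in vivo embryos. The CCs came from such superovulated BDF1 females. The MEFs were grown from BDF1 fetuses, passaged, and kept in low serum before use as donors. The genetic background of embryos and donor cells was therefore BDF1 throughout, although the in vivo oocytes came from C57BL/6 females. Nuclear transfer, chemical activation, treatment with the compound Scriptaid and culture went together in every NT embryo. Their parts in a difference from in vivo embryos cannot be told apart. The 3 libraries of an embryo group were 3 single embryos chosen by morphology. Those of a donor group are described only as 3 biological replicates, without a number of cells. The p-values measure the spread between such libraries.

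The unit of the table was RPKM, read counts scaled by exon length and by the reads of the library. Reads on genes ranged from 5294167 to 26281508 in embryo libraries and from 31558140 to 47830132 in donor libraries. In vivo blastulas stood apart from the other embryos, with 7730 to 7808 genes above 0 against 8997 to 14582 elsewhere. For the less abundant members, 3 reads in a library were worth 0.0190 to 0.172 RPKM for Sox7, 0.0131 to 0.119 RPKM for Sox17 and 0.0207 to 0.187 RPKM for Fgf4, so a value of 0 limits the level only down to there, as far as counting error goes. A whole embryo was 1 library, in which fewer cells of a type and less RNA per cell cannot be told apart. Exons of Gata6, Sox17, Pdgfra, Dab2 and Fgfr1 overlapped a gene on the opposite strand. On the same strand, those of Fgfr2 overlapped Ctbp2 and those of Pdgfra overlapped Mir7025. Reads in these overlaps could come from either gene. The exon lengths implied by the table differed from those of the GENCODE M21 annotation for Gata6 (3194 against 6508 bases), Fgfr2 (7240 against 10328), Fgfr1 (8120 against 9875) and Fgf4 (3030 against 3195), and levels compared between members depend on that length. No overlap was found for Gata4, Sox7 and Fgf4.

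The inner cell mass of the blastocyst divides into epiblast and primitive endoderm, the layer that gives rise to the yolk sac lining. Epiblast precursors make the ligand Fgf4, and neighbouring cells receive it through the receptor tyrosine kinases Fgfr1 and Fgfr2 and the RAS to ERK cascade. Gata6 marks the cells that respond, and Pdgfra, Sox17, Gata4 and Sox7 are known to follow it in that order, while Dab2, an endocytic adaptor protein, is needed to arrange primitive endoderm cells at the surface. Trophectoderm, the outer layer, also carries Fgfr2. Of the 6 primitive endoderm members, Dab2 ranged from 39.0 to 118 RPKM over the blastulas. Gata6 was at 20.9 to 102 RPKM in NT blastulas, but at 39.7, 2.49 and 1.39 in vivo. Gata4 reached 34.1 RPKM in vivo and at most 0.136 in NT blastulas. Sox7, Sox17 and Pdgfra were at 1.98 RPKM or less in every blastula. The levels described here are of genes in whole embryos and not of a separate primitive endoderm.

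The sequences before the annotated starts of Fgf4, Dab2 and Fgfr2 are shown because Fgf4 and Dab2 held the steadiest changes between stages and Fgfr2 the one called difference between embryo types at a stage. They are RefSeq windows of 250 bases that end just before the start (build GRCm38.p6), written 5′ to 3′ on the strand of the gene. Entries were matched for 4 of the 9 genes, Pdgfra being the other one. Capitals mark 3 motifs searched on both strands, the letters GATAA found in sites of GATA factors, the letters GGGCGG of a GC box and the letters TATATA of a TATA box.
Fgf4, chr7:144861136-144861385, plus strand: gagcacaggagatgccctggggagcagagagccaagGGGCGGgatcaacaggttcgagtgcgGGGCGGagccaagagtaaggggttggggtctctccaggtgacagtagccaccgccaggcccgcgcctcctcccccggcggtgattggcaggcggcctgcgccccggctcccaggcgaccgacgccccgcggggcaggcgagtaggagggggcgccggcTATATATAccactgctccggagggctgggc
Dab2, first start, chr15:6299539-6299788, plus strand: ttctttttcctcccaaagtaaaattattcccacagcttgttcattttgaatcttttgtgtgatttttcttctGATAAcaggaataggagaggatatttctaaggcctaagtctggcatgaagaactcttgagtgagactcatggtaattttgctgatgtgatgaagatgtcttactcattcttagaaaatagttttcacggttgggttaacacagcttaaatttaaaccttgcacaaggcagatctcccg
Dab2, second start, chr15:6386498-6386747, plus strand: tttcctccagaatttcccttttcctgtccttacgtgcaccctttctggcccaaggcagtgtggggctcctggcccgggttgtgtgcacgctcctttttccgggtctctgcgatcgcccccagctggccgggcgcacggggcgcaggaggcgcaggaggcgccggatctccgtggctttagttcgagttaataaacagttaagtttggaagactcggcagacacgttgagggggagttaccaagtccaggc
Fgfr2, chr7:130266809-130267058, minus strand: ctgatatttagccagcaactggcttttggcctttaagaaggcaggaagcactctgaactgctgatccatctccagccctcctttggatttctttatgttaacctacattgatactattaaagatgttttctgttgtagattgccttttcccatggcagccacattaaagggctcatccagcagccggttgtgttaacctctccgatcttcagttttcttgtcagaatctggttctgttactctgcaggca
The Fgf4 window was 71.2% G and C, held GGGCGG 214 and 188 bases before the start, and held a run of overlapping TATATA letters 30 bases before it. The first Dab2 window was 36.8% G and C with 1 GATAA, 178 bases before the start, and the second was 60% G and C with none of the 3 motifs. The Fgfr2 window, 44% G and C, held none either. Among 32851 windows of the same length, GATAA was found in 22.6%, GGGCGG in 32.7% and TATATA in 5.25%, and the median content of G and C was 52.4%. A match describes letters only, and values per gene do not show which start was in use.

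Changes between groups are differences in log2(RPKM + 1), a scale that understates the change of low genes. A gene was called where limma gave a Benjamini-Hochberg adjusted p under 0.05 over all genes tested and a difference of at least 1 in size. Only genes with a mean of at least 0.5 RPKM over the libraries compared were tested, so Sox7 was never tested, and Sox17 entered 3 comparisons, all with blastulas. Tested members are therefore never all 9. Over all comparisons 29 member values were called. Of these, 11 were no longer called when the filter on low values was left out, namely Gata6 and Fgf4 from 2-cell to 4-cell in both NT types, Gata6 from 4-cell to 8-cell in vivo, Dab2 from 4-cell to 8-cell in NTM embryos, Fgf4 from morula to blastula in NTC embryos and in the test of the NT against the in vivo step, Fgfr2 between NT and in vivo 8-cell embryos, Gata6 between donor cells, and Fgfr2 between NTC blastulas and CCs. The direction stayed the same in each. With a pseudocount of 0.1 in place of 1, Gata6 from 2-cell to 4-cell in NTC embryos, Dab2 from 4-cell to 8-cell in NTM embryos and Fgfr2 between NTC blastulas and CCs were not called.

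From 1-cell to 2-cell no tested member was called in any embryo type. In vivo, 0 of 5 were called against 0% of all genes, with 1 member at an unadjusted p under 0.05 (615 of 10854 genes). NTC embryos had 0 of 5 against 13.5% of genes (2 with an unadjusted p under 0.05), and NTM embryos 0 of 4 against 9.4% (1 such). Such a p was found for 3491 of 11915 genes in NTC and 2782 of 10920 in NTM embryos. The step from 2-cell to 4-cell held most calls, with 2 of 6 tested members in vivo (52.2% of all genes), 3 of 6 for NTC (36.6%) and 3 of 6 for NTM embryos (26.4%). From 4-cell to 8-cell, 3 of 6 were called in vivo (43.7% of genes), 0 of 6 for NTC (0.0564%), where 1 had an unadjusted p under 0.05 (1139 of 10634 genes), and 1 of 6 for NTM embryos (0.363%). From 8-cell to morula 0 of 5 in vivo (0.0116% of genes), 0 of 6 NTC (0%) and 0 of 4 NTM (0%) were called, while 2, 4 and 0 members had an unadjusted p under 0.05. Of all genes, 873 of 8592, 1270 of 10107 and 843 of 8841 had one. From morula to blastula 0 of 6 were called in vivo (0.801% of genes), 1 of 6 for NTC (7.16%) and 0 of 5 for NTM embryos (4.22%), and an unadjusted p under 0.05 was found for 2, 3 and 3 members. Over all genes it was found for 1480 of 8619, 2503 of 10044 and 2276 of 9823. Several further members passed the call when 1 library was left out. From 2-cell to 4-cell in vivo these were Fgfr1 without 2-cell replicate 1 (1.66, limma adjusted p = 0.0178) and Gata6 without 2-cell replicate 2 (2.53, limma adjusted p = 0.0216). From 4-cell to 8-cell in vivo, without 8-cell replicate 1, they were Gata4 (-1.45, limma adjusted p = 0.0343), Dab2 (1.98, limma adjusted p = 0.0378) and Fgfr1 (-1.57, limma adjusted p = 0.0258). In NTM embryos they were Gata4 from 2-cell to 4-cell without 4-cell replicate 1 (3.27, limma adjusted p = 0.0366) and Fgfr2 from morula to blastula without blastula replicate 3 (2.39, limma adjusted p = 0.0332). Over the 2-cell to 4-cell step the members' share was thus below that of all genes in vivo and above it in NTC and NTM embryos, on 6 genes each. Counts of 2, 3 and 3 are too small to tell these shares apart.

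Gata6, the transcription factor that starts the primitive endoderm programme, had no read in any in vivo embryo of the 1-cell stage and was high in 8-cell embryos and morulas. At the 4-cell stage in vivo embryos held 9.10, 8.66 and 18.1 RPKM, at the 8-cell stage 36.5, 59.8 and 20, and as morulas 51.4, 41.4 and 45. No 8-cell library was as low as any 4-cell library, and the 3 morulas lay close together. The 4-cell to 8-cell rise was 1.56 (SE 0.484, limma adjusted p = 0.0317). This call was lost without any of 4 of the 6 libraries, 4-cell replicates 1 and 2 and 8-cell replicates 1 and 2, with adjusted p up to 0.110.

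In NTC embryos Gata6 read 0, 2.54 and 1.89 RPKM at the 2-cell stage and 9.97, 5.66 and 8.49 at the 4-cell stage, so the groups did not overlap. That rise was 2.03 (SE 0.598, limma adjusted p = 0.0285). In NTM embryos the 2-cell libraries held 0, 0.228 and 0.0253 RPKM and the 4-cell libraries 37.5, 0.833 and 38.7. NTM 4-cell replicate 2 was far below the other 2, and the rise was 3.71 (SE 1.16, limma adjusted p = 0.0443). Both calls rested on few libraries, since the NTC call was lost without any 1 of 4 libraries (2-cell replicates 1 and 3, 4-cell replicates 1 and 3; 1.47 to 2.23, adjusted p 0.0530 to 0.0888) and the NTM call without any but 4-cell replicate 2 (2.96 to 3.80, adjusted p 0.132 to 0.152). Without NTM 4-cell replicate 2 the rise was 5.18, with an adjusted p of 0.00495. Later NT stages kept Gata6 high, from 7.08 to 62.9 RPKM in the 6 NT 8-cell libraries and from 30.6 to 77.7 in the 6 NT morulas.

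Gata4, the GATA factor expressed later in the lineage, followed another course, and its RNA was present from the 1-cell stage. In vivo 1-cell embryos held 6.91, 10.7 and 8.86 RPKM, and 4-cell embryos 13.9, 20.9 and 15.6. The 2-cell libraries between them spread from 0.719 to 10.5, and the step to 4-cell, 1.89, was not called (limma adjusted p = 0.0512). Without 2-cell replicate 1 it was 2.54 with an adjusted p of 0.0142, and it was also called under median-ratio scaling (1.76, adjusted p = 0.0467) and with 1 fit over all 20 groups (adjusted p = 0.0373). At the 8-cell stage in vivo libraries held 14.4, 3.69 and 7.81 RPKM, and the 3 morulas 0.336, 0.0874 and 0.0375. The morulas lay below every 8-cell library, a difference of -2.91 that was not called (limma adjusted p = 0.139, unadjusted p = 0.00106), in a step where 1 gene of 8592 was. The same step in NTC embryos, from 18.6, 24.0 and 14.6 RPKM to 2.13, 2.56 and 0.0780, gave -3.10 and an adjusted p of 0.121.

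Dab2 had the highest group means of the primitive endoderm members at the first and last stages and its lowest at the 4-cell stage, in all 3 embryo types. In NTM blastulas its mean was close to that of Gata6 (80.3 and 78.0 RPKM), and Gata6 was the higher one in replicates 1 and 2. In vivo 2-cell embryos held 21.8, 33.5 and 32.4 RPKM, and 4-cell embryos 1.12, 3.19 and 0.225. In NTC embryos the 2-cell libraries held 28.3, 23.9 and 27.4 RPKM and the 4-cell libraries 0, 1.69 and 1.86. NTM embryos went from 30.8, 27.4 and 19.1 RPKM to 1.24, 0.0697 and 0.0222. In each type every 4-cell library lay below every 2-cell library. Dab2 fell by 3.75 in vivo (SE 0.517, adjusted p = 0.000829), by 3.80 for NTC (SE 0.534, adjusted p = 0.00106) and by 4.29 for NTM embryos (SE 0.640, adjusted p = 0.00231, all by limma). All 3 calls stood without any single library and under every other setting tried. The test of a difference between the NT and in vivo steps gave -0.30 and no call.

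After the 4-cell stage Dab2 was higher again. NTM 8-cell embryos held 22.1, 25.9 and 13.4 RPKM, a rise of 3.95 over the 4-cell stage (SE 0.689, limma adjusted p = 0.0462), which was lost without any library but 4-cell replicate 1 (3.75 to 4.21, adjusted p 0.0840 to 0.393). In vivo 8-cell embryos held 2.27, 5.65 and 10.6 RPKM and NTC 8-cell embryos 17.2, 4.79 and 4.90. The NTM 8-cell libraries lay above all in vivo ones and overlapped the NTC ones. By the blastula stage Dab2 stood at 42.0, 39.0 and 69.5 RPKM in vivo, at 118, 79.7 and 49.0 in NTC embryos and at 80.2, 94.5 and 66.3 in NTM embryos. The 3 groups overlapped, and NT against in vivo gave 0.68 (limma adjusted p = 0.284).

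Sox17 and Sox7, SOX factors of the maturing primitive endoderm, were low and at 0 in most libraries, although their highest values lay well above the value of 3 reads. Sox17 was above 0 in 12 of the 60 libraries and at or above 1 RPKM in 5. In vivo blastulas held 0.0133, 1.98 and 1.68 RPKM of Sox17, NTC blastulas 1.75, 0 and 0, and NTM blastulas 1.74, 0 and 0. Among blastulas the in vivo group had the highest mean, but 1 library of each NT type reached its range, and NT against in vivo gave -0.52 (limma adjusted p = 0.502). Sox7 was above 0 in 7 libraries, never reached 1 RPKM, and was listed at 0 in all 3 libraries of 14 groups. Its highest value, 0.889 RPKM, was in NTC morula replicate 2.

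Pdgfra, the platelet-derived growth factor receptor of primitive endoderm and of mesenchyme, was a fibroblast gene in these data. MEFs held 17.8, 25.7 and 20.9 RPKM, and CCs at most 0.0160. In embryos it was above 0 in 25 of 54 libraries and never above 0.839 RPKM, the value of NTM blastula replicate 1. Its ligand Pdgfa was not low at the same stage, with 14.3, 5.88 and 46.4 RPKM in the in vivo blastulas, 54.7, 69.0 and 35.2 in the NTC and 62.5, 84.6 and 73.2 in the NTM blastulas. At the 4-cell stage Pdgfa averaged 1.06 RPKM in vivo and 22.2 in NT embryos, a difference of 2.87 (limma adjusted p = 0.0344).

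**Figure D1:**
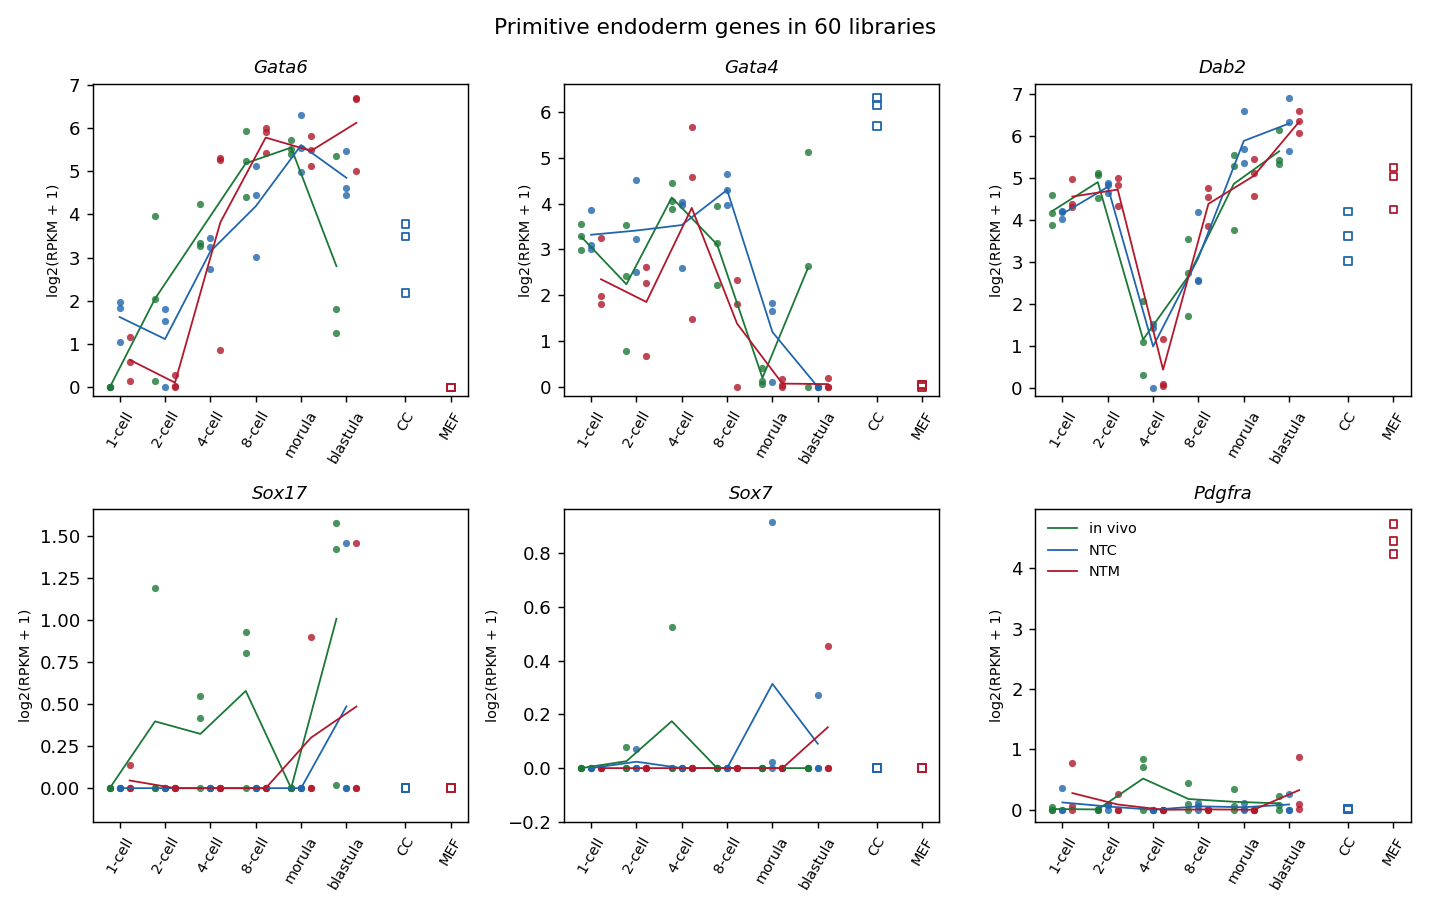
RPKM on a log2(RPKM + 1) axis of the 6 primitive endoderm members in every library, by stage and embryo type, with donor cells. Each point is 1 library and each line joins the group means on the plotted scale. Dab2 is lowest at the 4-cell stage in all 3 embryo types, Gata6 is high in 8-cell embryos and morulas of all 3 types, and Sox7, Sox17 and embryonic Pdgfra stay at 1.98 RPKM or less.

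Fgf4, the ligand, had its highest group mean at the 4-cell stage in all 3 embryo types. It was listed at 0 in all donor and all 1-cell libraries and in 8 of 9 2-cell libraries, the exception being in vivo 2-cell replicate 3 with 1.14 RPKM. In vivo 4-cell embryos held 17.8, 43.3 and 17.9 RPKM, the highest group mean of this gene, and 8-cell embryos 0.0922, 1.10 and 0.114. The 4-cell libraries lay above all libraries of the stages before and after. Fgf4 rose by 4.28 from 2-cell to 4-cell (SE 0.519, limma adjusted p = 0.000450) and fell by 4.20 from 4-cell to 8-cell (SE 0.501, limma adjusted p = 0.000513). Both calls stood without any single library.

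In NTC 4-cell embryos Fgf4 read 40.7, 1.64 and 4.47 RPKM and in NTM 4-cell embryos 14.9, 2.06 and 3.69. Replicate 1 of each type was the high one, and NTC replicate 1 reached the in vivo range. Both NT groups were at 0 at the 2-cell stage, so the rise to the mean over 3 libraries was at least 83.4-fold in NTC and at least 86.0-fold in NTM embryos, against the value of 3 reads in each library. Without 4-cell replicate 1 these bounds were 16.4-fold and 35.9-fold. On the log scale the rise was 3.08 in NTC (SE 0.926, limma adjusted p = 0.0306) and 2.61 in NTM embryos (SE 0.748, limma adjusted p = 0.0322). The NTC call was lost without any of 4 libraries (each 2-cell replicate and 4-cell replicate 3; 3.08 to 3.39, adjusted p 0.0565 to 0.101), and without 4-cell replicate 1 the rise was 1.93 (adjusted p = 0.0472). The NTM call was lost without any library but 4-cell replicate 2 (1.92 to 2.80, adjusted p 0.0658 to 0.0968). Between NT and in vivo 4-cell embryos the difference was -1.80, which was not called (limma adjusted p = 0.143), and the steps themselves differed by -1.44 (limma adjusted p = 0.382). Without NTC 4-cell replicate 1 the 4-cell difference was -2.38, with an adjusted p of 0.0247.

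At the last step Fgf4 went in opposite directions in in vivo and NTC embryos. In vivo morulas held 0, 0.0901 and 0.217 RPKM and in vivo blastulas 0, 7.29 and 5.55. NTC embryos went the other way, from 2.82, 6.65 and 3.0 RPKM in morulas to 0, 0 and 0.129 in blastulas, with no overlap. NTM embryos stayed low at both stages, with 0.857, 0.636 and 0 RPKM and then 0.754, 0.748 and 0.686. The NTC fall was by 2.23 (SE 0.435, limma adjusted p = 0.0193), a call lost without any of 4 libraries (morula replicates 1 and 3, blastula replicates 1 and 2; -2.41 to -2.2, adjusted p 0.0520 to 0.0766). The in vivo rise, 1.78, was not called (limma adjusted p = 0.331).

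The difference between the NT and in vivo steps from morula to blastula was tested directly, and Fgf4 was the 1 member called of 6 tested, against 5.96% of genes. It was -2.77 (SE 0.736, 95% interval -4.32 to -1.23, limma adjusted p = 0.0339). Without in vivo blastula replicate 1, the in vivo blastula with no Fgf4 read, it was -3.73 with an adjusted p of 0.000492. Singling out that library rests on its Fgf4 value having been seen, so this smaller p adds no evidence. The call was lost without any of 12 of the 18 libraries, among them all 3 in vivo morulas and in vivo blastula replicates 2 and 3, with differences of -2.85 to -2.21 and adjusted p of 0.0513 to 0.0705. At the 2-cell to 4-cell step the same test called 0 of 6 members, against 14.3% of genes. No member had an unadjusted p under 0.05, against 3549 of 13160 genes.

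Fgfr2, the receptor of trophectoderm and primitive endoderm, was the 1 receptor among the members with called changes between embryos. In vivo it held 3.62, 4.54 and 1.39 RPKM at the 4-cell stage and 11.6, 10.5 and 9.81 at the 8-cell stage, with no overlap. The rise was 1.56 (SE 0.429, limma adjusted p = 0.0204), and without 4-cell replicate 3 it was 1.20 with an adjusted p of 0.0566. NTC 8-cell embryos held 0.387, 1.38 and 0.736 RPKM and NTM 8-cell embryos 5.04, 4.22 and 5.52. All 6 NT libraries lay below all 3 in vivo libraries, and the NTC ones below the NTM ones. NT embryos were lower by -1.84 (SE 0.433, limma adjusted p = 0.0345), while the median of all genes at this stage was 0.42 higher in NT embryos. The call was lost without any of 7 of the 9 libraries (all but NTC replicates 2 and 3), with values of -1.89 to -1.74 and adjusted p of 0.0548 to 0.113.

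By the morula stage Fgfr2 was at 9.57, 8.84 and 2.83 RPKM in vivo, 10.8, 4.19 and 8.65 in NTC morulas and 5.53, 4.63 and 2.94 in NTM morulas, and these ranges overlapped. Blastulas held the highest levels of this gene in all 3 types, 22.6, 61.1 and 37.2 RPKM in vivo, 25.0, 14.6 and 9.19 for NTC and 35.9, 19.6 and 6.74 for NTM. The in vivo step was 2.38 and was not called (limma adjusted p = 0.185). NT blastulas differed from in vivo by -1.17 (limma adjusted p = 0.202), with overlapping ranges.

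Fgfr1, the receptor that inner cell mass cells share, was high in fibroblasts, with 20.2, 35.2 and 30.9 RPKM in MEFs. In vivo embryos stayed between 0 and 3.18 RPKM at every stage. NTM group means were higher during early cleavage, but the ranges overlapped. NTM 2-cell libraries held 3.99, 2.60 and 6.20 RPKM, after 0.157, 0.467 and 0.261 in 1-cell embryos. In vivo 2-cell libraries reached 3.02 RPKM and NTC ones 2.61. NTM 4-cell libraries held 1.10, 20.4 and 6.57 RPKM, those in vivo 1.68 to 3.18 and NTC ones 0.733 to 3.30. NTM minus NTC was 1.01 for 2-cell embryos and 1.42 for 4-cell embryos, neither called by limma. The NT minus in vivo differences, 1.10 and 0.34, were not called either. The NTM step from 1-cell to 2-cell, 1.97, had no overlap and was not called (limma adjusted p = 0.0643). All 6 NT blastulas, with 1.15 to 4.6 RPKM, lay above the 3 in vivo blastulas, with 0, 0.317 and 0.236, a difference of 1.24 that was not called (limma adjusted p = 0.0645). The median of all genes was 0.79 higher in NT blastulas. Under median-ratio scaling the Fgfr1 difference was 0.96 (limma adjusted p = 0.0909). Without NTM blastula replicate 3 the unscaled difference was 1.37, with an adjusted p of 0.0390.

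**Figure D2:**
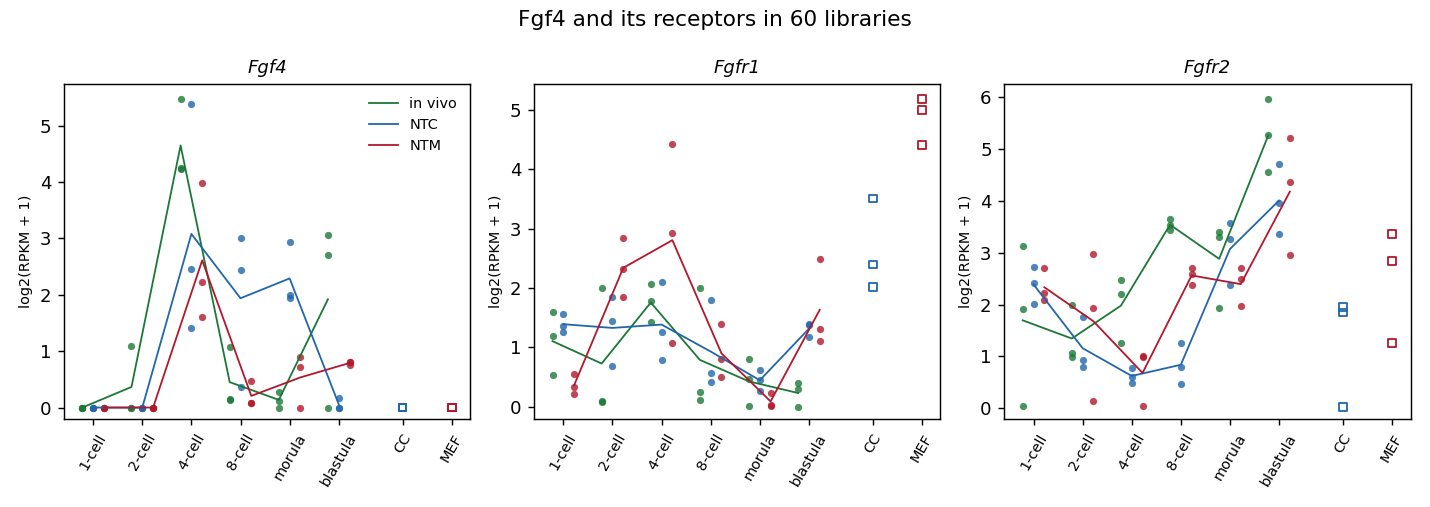
RPKM on a log2(RPKM + 1) axis of Fgf4, Fgfr1 and Fgfr2 in every library, by stage and embryo type, with donor cells. Each point is 1 library and each line joins the group means on the plotted scale. Fgf4 peaks at the 4-cell stage, Fgfr2 is highest in blastulas, and Fgfr1 is highest in MEFs.

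At the blastula stage NT embryos were compared with in vivo embryos for 7 members, and limma called 0 of them against 18.5% of genes. An unadjusted p under 0.05 was found for 4 of the 7 members and for 3511 of 9788 genes. In vivo blastulas differed widely among themselves. Gata6 read 39.7 RPKM in in vivo replicate 1 and 2.49 and 1.39 in replicates 2 and 3, and Gata4 read 0 in replicate 1 and 5.21 and 34.1 in the others. Replicate 1 thus had high Gata6 with no read of Gata4 or Fgf4, and replicates 2 and 3 the reverse. On the log2(RPKM + 1) scale NT blastulas lay nearer to replicate 1 in these 3 genes. They held Gata6 at 20.9, 43.4 and 23.5 RPKM (NTC) and 101, 102 and 30.9 (NTM), Gata4 at 0 in 5 of 6 libraries and 0.136 in NTM replicate 3, and Fgf4 at 0.754 or less.

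With all libraries the NT minus in vivo difference in blastulas was 2.68 for Gata6 (95% interval 0.77 to 4.59, limma adjusted p = 0.0541) and -2.56 for Gata4 (95% interval -4.43 to -0.69, limma adjusted p = 0.0590). For Fgf4 it was -1.50 (limma adjusted p = 0.107). The median of all genes was 0.79 higher in NT blastulas. Under median-ratio scaling the differences were 2.06 for Gata6, -2.70 for Gata4 and -1.71 for Fgf4 (limma adjusted p = 0.125, 0.0659 and 0.0952). Without in vivo replicate 1 all 3 were called, Gata6 at 3.95 (adjusted p = 0.00355), Gata4 at -3.85 (adjusted p = 0.00399) and Fgf4 at -2.46 (adjusted p = 0.00526, all by limma). In the same setting the in vivo morula to blastula step of Gata6 was -4.02 (limma adjusted p = 0.0423), against -2.74 (adjusted p = 0.247) with all libraries. The differences between the NT and in vivo steps became -4.29 for Gata4 and 3.96 for Gata6 (limma adjusted p = 0.00163 and 0.00185), from -3.0 and 2.69 (adjusted p = 0.0754 and 0.103). Gata6 alone of these 3 was also called without NTM replicate 3, at 2.96 (limma adjusted p = 0.0482). Leaving out in vivo replicate 1 rests on its values having been seen, and it leaves 2 in vivo embryos.

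Markers of other cell types also varied among blastulas. The summed RPKM of 8 trophectoderm genes was 430 to 1101 in vivo, 167 to 755 in NTC and 297 to 694 in NTM blastulas. Such a sum is weighted towards the most abundant genes. Gene by gene, limma called 0 of these 8 between NT and in vivo blastulas. Their median difference was 0.55, against 0.79 over all genes. All 9 oocyte genes were at 0 in the 3 in vivo blastulas and summed to 2.79 to 17.8 RPKM in NTC and 0.771 to 2.97 in NTM blastulas. The part of cell makeup in the differences was not tested.

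**Figure D3:**
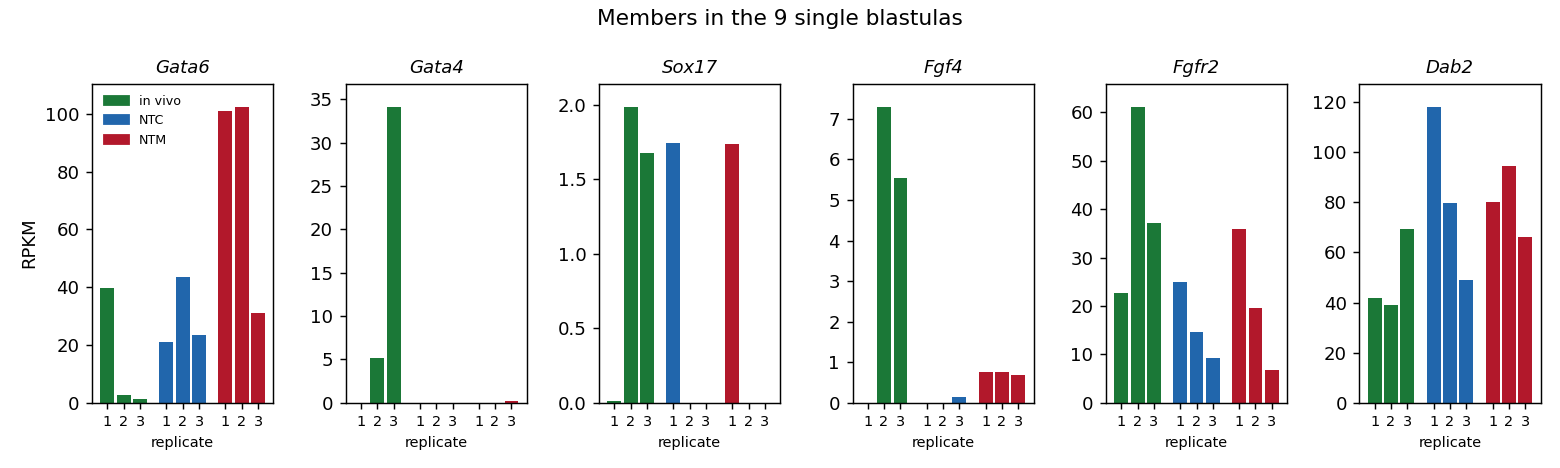
RPKM of 6 members in each of the 9 blastula libraries, on linear axes that start at 0. Each bar is 1 library, numbered by replicate and coloured by embryo type. In vivo replicate 1 sits with the NT blastulas for Gata6, Gata4 and Fgf4, and in vivo replicates 2 and 3 sit apart from them.

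Before the blastula stage few members were called between NT and in vivo embryos. At the 1-cell stage 0 of 5 tested members were called against 3.82% of genes, and 1 had an unadjusted p under 0.05, against 2498 of 10770 genes. The member was Gata6, at 0 in the in vivo embryos and at 0.111 to 2.94 RPKM in all 6 NT embryos, a difference of 1.13 (limma adjusted p = 0.0953). At the 2-cell stage 0 of 5 were called (0.338% of genes), at the 4-cell stage 0 of 6 (26.6%) and in morulas 0 of 5 (0.693%), while 0, 1 and 1 members had an unadjusted p under 0.05. Of all genes, 1330 of 11824, 4306 of 11264 and 1216 of 9231 had one. Fgfr2 was the member with the unadjusted p at the 4-cell stage, at -1.32 (limma adjusted p = 0.0520), and all 6 NT libraries lay below all 3 in vivo ones. For Fgf4, 5 of the 6 did. Without in vivo replicate 3 the Fgfr2 difference was -1.69 (limma adjusted p = 0.0439), and without NTM replicate 3 it was -1.41 (limma adjusted p = 0.0448). The median of all genes at this stage was -0.41. Under median-ratio scaling the Fgfr2 difference was -0.97 (limma adjusted p = 0.150). At the 8-cell stage 1 of 6 was called, the Fgfr2 difference given above, against 3.61% of genes. Over the 6 stages 1 of 34 values was called.

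**Figure D4:**
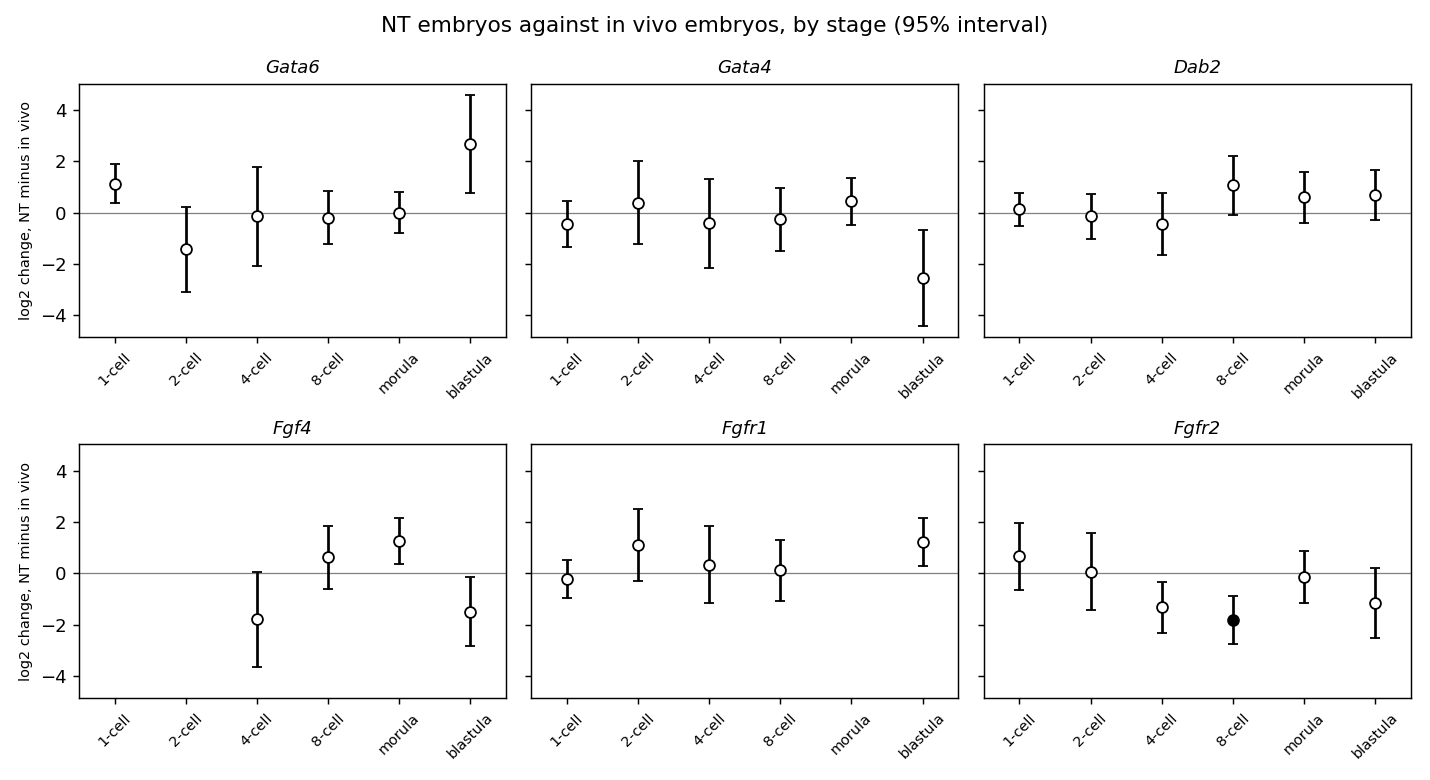
Difference in log2(RPKM + 1), mean of NTC and NTM minus in vivo, of 6 members at each stage where they were tested, with 95% intervals. The filled point is the 1 called value, Fgfr2 at the 8-cell stage at -1.84, and in blastulas Gata6 lies above 0 and Gata4 below it with wide intervals.

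The type of donor nucleus made no called difference in the members, 0 of 32 values over the 6 stages by limma. NTM against NTC called 0 of 5 at the 1-cell stage (19.8% of genes), 0 of 5 at the 2-cell (0%) and 0 of 6 at the 4-cell stage (0%), and 2, 0 and 0 members had an unadjusted p under 0.05. Among all genes 4098 of 10799, 772 of 11609 and 602 of 10233 did. It called 0 of 6 at the 8-cell stage (0.0507%), 0 of 5 in morulas (0%) and 0 of 5 in blastulas (0%), where 5, 1 and 1 members had such a p. At these stages 1294 of 9853, 1534 of 9186 and 315 of 10187 genes had one. Without NTM 1-cell replicate 1, Gata4 was called at the 1-cell stage, at -1.42 (limma adjusted p = 0.0376). At the 8-cell stage Gata4 read 18.6, 24.0 and 14.6 RPKM in NTC embryos, with 0, 4.06 and 2.49 in the NTM ones, and Fgf4 read 7.04, 4.41 and 0.293 against 0.0515, 0.383 and 0.0573. Both were lower in NTM embryos, by -2.92 for Gata4 (limma adjusted p = 0.125) and by -1.73 for Fgf4 (limma adjusted p = 0.348). Gata6 (1.59, limma adjusted p = 0.272), Fgfr2 (1.72, adjusted p = 0.254) and Dab2 (1.28, adjusted p = 0.370) were on the other side. Gata6 read 33.6, 20.7 and 7.08 RPKM in NTC embryos, with 59.3, 62.9 and 41.9 in the NTM ones, without overlap.

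The donor cells themselves differed in 3 of the 6 members tested, against 6.29% of genes. Gata4, which ovarian granulosa cells also express, read 51.0, 77.9 and 69.9 RPKM in CCs and 0.0304, 0.0345 and 0 in MEFs. It was lower in MEFs by -6.02 (SE 0.573, limma adjusted p = 0.000519). Gata6 read 10.2, 3.53 and 12.7 RPKM in CCs and 0 in all MEFs, at least 348-fold higher in CCs against the value of 3 reads, with a difference of -3.15 (SE 0.740, limma adjusted p = 0.0411) that was lost without any library but CC replicate 2 (-3.15 to -2.83, adjusted p 0.0989 to 0.131). Pdgfra was higher in MEFs by 4.46 (SE 0.641, limma adjusted p = 0.00416). Without CC replicate 1, Fgfr1 was called as well, at 2.66 (limma adjusted p = 0.0378).

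NT 1-cell embryos held less Gata4 than CCs and less Pdgfra and Fgfr1 than MEFs. Dab2, also present in both donor cells, was not called, at 0.53 against CCs and -0.29 against MEFs (limma adjusted p = 0.264 and 0.513). NTC 1-cell embryos had 1 of 5 tested members called (50% of genes), Gata4, with 13.5, 7.06 and 7.49 RPKM, lower than in CCs by -2.73 (SE 0.339, limma adjusted p = 0.00114). Without CC replicate 2, Gata6 (-2.01, limma adjusted p = 0.00969) and Fgfr1 (-1.56, limma adjusted p = 0.0279) were called there too. In NTM 1-cell embryos 3 of 5 were called (55.2% of genes). Pdgfra was lower than in MEFs by -4.20 (SE 0.344, limma adjusted p = 7.89e-05) and Fgfr1 by -4.49 (SE 0.327, limma adjusted p = 4.9e-05). Gata4 went the other way, with 8.50, 2.51 and 2.96 RPKM in NTM 1-cell embryos, 2.32 above the MEFs (SE 0.461, limma adjusted p = 0.00478). In vivo 1-cell embryos, which have no donor cell, held Gata4 at 6.91 to 10.7 RPKM.

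NTC blastulas against CCs had 3 of 5 members called (24.2% of genes). Gata4 was at 0 in all 3 blastulas, at least 881-fold lower than in CCs against the value of 3 reads, and -6.05 on the log scale (SE 0.443, limma adjusted p = 0.000238). Dab2 was higher than in CCs, which held 7.09, 11.2 and 17.3 RPKM, by 2.69 (SE 0.489, limma adjusted p = 0.00756). Fgfr2, at 0.0222, 2.88 and 2.60 RPKM in CCs, was 2.72 higher (SE 0.701, limma adjusted p = 0.0283), and this call was lost without any 1 of the 3 blastulas (2.38 to 3.05, adjusted p 0.0611 to 0.122).

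NTM blastulas against MEFs had 4 of 5 called (30.8% of genes). Gata6, at 0 in MEFs, was at least 3080-fold higher in the blastulas against the value of 3 reads, and 6.12 on the log scale (SE 0.559, limma adjusted p = 0.000142). Pdgfra was lower by -4.15 (SE 0.465, limma adjusted p = 0.000407) and Fgfr1 by -3.23 (SE 0.521, limma adjusted p = 0.00245). Dab2, at 17.9, 31.6 and 36.9 RPKM in MEFs, was 1.49 higher (SE 0.408, limma adjusted p = 0.0250), a call lost without any of 4 libraries (MEF replicates 1 and 2, blastula replicates 1 and 2; 1.19 to 1.59, adjusted p 0.0566 to 0.0815). The summed RPKM of 11 cumulus genes was 5.91 to 26.1 in NTC blastulas against 1323 to 2183 in CCs. It was also 517 to 1231 in MEFs, and at most 98.1 in any embryo, an NTC 1-cell one. The sum of 11 fibroblast genes was 8911 to 11740 in MEFs and at most 22.3 in any embryo.

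Other genes of the pathway were counted from lists of FGF ligands, receptors, adaptors, RAS to ERK components, feedback targets and heparan sulfate enzymes, with lists of further primitive endoderm and of epiblast genes. From 2-cell to 4-cell in vivo, 31.4% of all genes rose and 20.8% fell, with a median of 0.36. In that step 3 of 10 RAS to ERK genes rose and 2 fell, 1 of 7 feedback targets rose and 2 fell, 2 of 10 further primitive endoderm genes rose and 3 fell, and 4 of 6 epiblast genes rose and 0 fell. Of the ligands 1 of 5 rose and 1 fell, of the receptors 1 of 2 rose, of the adaptors 2 of 7 rose, and of the heparan sulfate enzymes 3 of 6 fell. Cited1, a transcriptional co-activator, went from a mean of 0.658 to 239 RPKM (7.19, SE 0.441, limma adjusted p = 3.74e-05). From 4-cell to 8-cell in vivo 4.40% of all genes rose and 39.3% fell, with a median of -1.05. Median-ratio scaling moved the share of higher genes among these calls from 10.1% to 41.8%. In that step 2 of 7 adaptors, 5 of 10 RAS to ERK genes and 3 of 7 feedback targets fell, and 1 RAS to ERK gene rose. Of the ligands 2 of 3 fell, of the receptors 1 of 2 fell, of the heparan sulfate enzymes 1 of 5 rose and 1 fell, and of the further primitive endoderm genes 1 of 9 rose and 2 fell. Among them Map2k1, a kinase that activates ERK, went from 27.4 to 1.18 RPKM (-3.71, SE 0.349, limma adjusted p = 0.000182), and Spry2, a feedback inhibitor of receptor tyrosine kinases, from 13.0 to 1.09 RPKM (-2.59, SE 0.553, limma adjusted p = 0.00709). Fgf4 fell in that same step while Fgfr2 and Gata6 rose.

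In NT embryos the 2-cell to 4-cell step lowered 2 of 7 feedback targets for NTC, 2 of 8 for NTM embryos, and raised none, while 20.1% (NTC) and 14.3% (NTM) of all genes fell and 16.4% and 12.1% rose. For NTC, 3 of 10 RAS to ERK genes rose and 3 fell, 2 of 8 adaptors rose and 1 fell, 2 of 4 ligands fell, 1 of 2 receptors rose, 1 of 9 further primitive endoderm genes rose and 2 fell, and 1 of 3 epiblast genes rose and 1 fell. For NTM, 2 of 10 RAS to ERK genes rose and 2 fell, 2 of 8 adaptors rose, 2 of 3 ligands fell, 1 of 10 further primitive endoderm genes rose and 2 fell, and 1 of 5 epiblast genes rose. None of 6 heparan sulfate enzymes was called in either. Spry4, another feedback inhibitor, went from 112 to 3.85 RPKM in NTC (-5.15, limma adjusted p = 0.00146) and from 136 to 2.29 RPKM in NTM embryos (-5.60, limma adjusted p = 0.00137). Mapk3, the ERK1 kinase, went from 88.9 to 0.443 RPKM in NTC (-5.99, limma adjusted p = 0.000151) and from 103 to 0.0703 RPKM in NTM embryos (-6.60, limma adjusted p = 0.000344). In vivo, both fell too, the limma differences being -4.76 for Spry4 (adjusted p = 6.16e-05) and -4.14 for Mapk3 (adjusted p = 0.00139).

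Of 6 epiblast genes tested at the 4-cell stage, 4 were lower in NT than in in vivo embryos and none was higher. NT embryos were lower in 3 and higher in 2 of 10 RAS to ERK genes, with a median of -0.41 over all genes, of which 5.0% were higher and 21.6% lower. Of the other lists, 1 of 3 ligands and 2 of 7 feedback targets were lower, 2 of 6 heparan sulfate enzymes were higher, 1 of 9 further primitive endoderm genes was higher and 1 lower, and none of 3 receptors and 8 adaptors was called. Nanog, the epiblast factor, averaged 12.5 RPKM in vivo and 1.00 in NT embryos (-3.0, limma adjusted p = 0.00253), and Tdgf1, an epiblast co-receptor for Nodal, 22.8 and 2.52 (-3.66, limma adjusted p = 0.00652). Cited1 was lower there as well, at 239 and 32.6 RPKM (-3.04, limma adjusted p = 0.00139).

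In blastulas NT embryos were lower in 2 and higher in 1 of 6 feedback targets, and higher in 2 of 8 adaptors, 2 of 11 further primitive endoderm genes and 2 of 5 heparan sulfate enzymes, with a median of 0.79 over all genes, of which 16.6% were higher and 1.93% lower. The 1 other receptor tested was higher and 2 of 7 epiblast genes were lower. Spry2 read 23.3, 64.8 and 102 RPKM in vivo, 1.24, 1.39 and 2.82 in NTC and 3.05, 2.87 and 2.74 in NTM blastulas. All 6 NT libraries lay below all 3 in vivo libraries, by -4.08 (SE 0.565, limma adjusted p = 0.00253), and the NT step from morula to blastula differed from the in vivo step by -4.35 (SE 0.684, limma adjusted p = 0.00263). Spry1, of the same family, read 2.72, 13.1 and 26.4 RPKM in vivo and 5.0 or less in NT blastulas, and its steps differed by -2.71 (limma adjusted p = 0.0466). Dusp4, a phosphatase of ERK, lay on the other side, with 0.906, 2.05 and 0.0636 RPKM in vivo, 16.3, 46.3 and 10.9 in NTC and 4.96, 74.4 and 19.8 in NTM blastulas (3.53, SE 0.812, limma adjusted p = 0.0150). In vivo replicate 1, which lacked Fgf4 and Gata4 reads, was the lowest of the in vivo blastulas for Spry2 and Spry1, and still above the NT blastulas for Spry2.

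By group mean, the highest group was CC for Gata4 (66.3 RPKM), NTM blastula for Gata6 (78.0), NTC blastula for Dab2 (82.2), in vivo blastula for Sox17 (1.23) and Fgfr2 (40.3), in vivo 4-cell for Fgf4 (26.3), NTC morula for Sox7 (0.302), and MEF for Pdgfra (21.5) and Fgfr1 (28.8). When the 20 groups were ordered by mean, 1 of 19 neighbouring pairs had ranges apart for Gata4, that between CC and NTM 4-cell embryos at 24.8, and 1 for Pdgfra, that between MEF and in vivo 4-cell embryos at 0.475. For the other 7 members no neighbours in the order had ranges apart.

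Genes with the most similar pattern were ranked by Pearson correlation over the 20 group means on the log scale, among 18890 genes, as a description. The group means share the stages and the depth of their libraries. Closest to Gata6 were Gin1 (r = 0.92), Pramel5 and Cyp2s1, to Gata4 Cep89 (r = 0.82), Ints4 and Card6, and to Dab2 Fabp5 (r = 0.85), Stx7 and Chmp2b. Closest to Fgf4 were Gm33051 (r = 0.93), Esp24 and Tnfaip8l2, and to Fgfr1 Pomt1 (r = 0.92), Kazn and Rai1. Sox17 was closest to Pdzk1ip1 (r = 0.85), Ddt and Hist1h3c, and Pdgfra, a pattern set by the MEF libraries, to Trim16 (r = 0.997), Gm25897 and Arc. No member appeared among the 3 closest genes of another, and the strongest correlations between members were 0.74 for Sox17 with Fgfr2, 0.73 for Pdgfra with Fgfr1 and -0.66 for Gata4 with Dab2.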

How the data were processed

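The authors deposited RPKM values of 27238 genes in 1 table with 60 libraries, made from amplified cDNA without molecular identifiers. The methods name TopHat, Bowtie2 and HTSeq, while the submitters' processing notes name Bowtie 0.12.2 and mm8, and the strand of counting is not given in the sources used here. Values were used as deposited. Library depth and the value of 3 reads were worked out from the steps of the RPKM values.

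Groups were compared with limma 3.58.1 (R 4.3.3, lmFit and eBayes with a trend) on log2(RPKM + 1), for genes with a mean of at least 0.5 RPKM. The Benjamini-Hochberg threshold was 0.05 and the smallest difference 1. The study compared groups in pairs, on counts, with NTC and NTM each set against in vivo. Here NT against in vivo used the mean of NTC and NTM, and tests of steps that differ were added. The code was tested on simulated data. Alternatives were no filter on low values, a pseudocount of 0.1, no minimum difference, median-ratio scaling, 1 fit over all 20 groups, a replicate block and leaving out each library.

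All members were described. Of 111 other listed genes in the table, at most 4 called per comparison with the largest change were to be named, and 3 genes most like each member, where its highest group mean reached 1 RPKM. Those of Fgfr2 are not reported here. The fall of Spry4 and Mapk3 in vivo and blastula values of Pdgfa and Spry1 were chosen after their values were seen. Members and lists were chosen with earlier results of these data known. Foxa2 was not analysed here. Other calculations used Python 3.11.15, numpy 2.4.6, pandas 2.3.3 and matplotlib 3.10.9. Symbols came from GENCODE M21 and promoter windows from RefSeq.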

Additional observations from a re-analysis of the deposited data

Results flagged for a closer look

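The step of Fgf4 from morula to blastula differed between embryo types by the test of the difference itself. In NT embryos (mean of NTC and NTM) the step was lower than in vivo by -2.77 on the log2(RPKM + 1) scale (SE 0.736, limma adjusted p = 0.0339). Fgf4 was lower in all 3 NTC blastulas than in all 3 NTC morulas, and higher in 2 of 3 in vivo blastulas than in all in vivo morulas. In NTM embryos it was not called (0.26, limma adjusted p = 0.768). The difference was no longer called without any of 12 of the 18 libraries or without the filter on low values. Groups of 3 libraries were not tested for single values far from the others.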

How the results depend on the processing

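No called member changed sign under any setting, and 16 of 29 called values stayed called without each single library and under every other setting. With 1 fit over all 20 groups, more were called, 13 over the in vivo steps (5 in the main comparison), 8 over the NTC steps (4), 8 over the NTM steps (4), 6 for NT against in vivo (1), 1 for NTM against NTC (0) and 2 for steps that differ between NT and in vivo embryos (1). That setting lost Gata6 from 4-cell to 8-cell in vivo. For NT against in vivo it added Fgf4 at the 4-cell stage (-1.80, limma adjusted p = 0.00721). In blastulas it added Gata4 (-2.56, 0.00429), Gata6 (2.68, 0.00333), Fgf4 (-1.50, 0.0303) and Fgfr1 (1.24, 0.0448). Without a filter on low values, which tests more genes, 18 of the 29 stayed called, with 1 over the NTC steps, 1 over the NTM steps, 0 for NT against in vivo and 0 for steps that differ. A pseudocount of 0.1 gave 3 for NT against in vivo, adding Gata6 (3.03) and Fgfr1 (2.92) in blastulas, and median-ratio scaling gave 2, adding Fgfr2 in blastulas (-1.83, limma adjusted p = 0.0386). That pseudocount also lost Gata6 from 2-cell to 4-cell for NTC (3.30, limma adjusted p = 0.0709), Dab2 from 4-cell to 8-cell for NTM (6.03, 0.0636) and Fgfr2 in NTC blastulas against CCs (3.92, 0.0732). Median-ratio scaling also added Gata4 from 2-cell to 4-cell and Dab2 from 4-cell to 8-cell in vivo (limma adjusted p = 0.0467 and 0.0335), Gata6 in NTC 1-cell embryos and NTC blastulas against CCs (-1.45 and 2.02) and Fgfr2 in NTM blastulas against MEFs (2.12). The cause was not tested. Median-ratio scaling shifted the median of all genes by -0.48 to 0.71, by over 0.1 in 25 of 34 comparisons. It moved the share of higher genes among all calls from 10.1% to 41.8% for in vivo 4-cell to 8-cell and from 89.6% to 70.3% for NT against in vivo blastulas.

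Leaving out 1 library at a time gave 4 to 7 calls over the in vivo steps, 2 to 4 over the NTC steps, 1 to 5 over the NTM steps, 0 to 4 for NT against in vivo, 0 to 1 for NTM against NTC, 2 to 3 for MEF against CC, 10 to 13 for NT embryos against their donor cell and 0 to 3 for steps that differ. Where that left 1 arm smaller, the spread was pooled over the remaining libraries.

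Replicate numbers gave no clear pairing of the libraries. Over 38 pairs of groups, correlations of same-numbered libraries ran from -0.205 to 0.119, and no pair of groups had all 3 over 0.1. NTC and NTM blastulas came closest, with 0.119, 0.0947 and 0.108. With the replicate number as a block, 26 of the 29 stayed called. Those lost were Fgfr2 between NT and in vivo 8-cell embryos (limma adjusted p = 0.0572), Gata6 from 4-cell to 8-cell in vivo (0.0559) and Gata6 between donor cells (0.0808), while Gata6 between NT and in vivo blastulas was added (2.68, 0.0497). With the block 4 members were called over the in vivo steps, 4 over the NTC steps, 4 over the NTM steps, 1 for NT against in vivo, 0 for NTM against NTC, 2 for MEF against CC, 11 against the donor cell and 1 for steps that differ.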
